A study of Homo sapiens with 3 samples.

Results

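Inflammasomes are protein platforms that turn the sensing of microbial products, misplaced DNA or cell stress into the activation of inflammatory caspases, and pyroptosis is the lytic cell death that these caspases drive. The genes described here are 8 genes of this system: the sensors AIM2 and NLRP1, the adaptor PYCARD, the CARD-only gene CARD16, the caspases CASP1 and CASP4, the pore former GSDMD and the cytokine IL18. They were picked by symbol from the 61550 genes of the deposited table, and each of the 8 symbols matched 1 gene. In the canonical route a sensor recruits the adaptor protein ASC, encoded by PYCARD, which gathers pro-caspase-1, and active caspase-1 cleaves pro-interleukin-18, pro-interleukin-1β and gasdermin D. In the noncanonical route caspase-4 binds bacterial lipopolysaccharide directly, with help from guanylate-binding proteins, and also cleaves gasdermin D. Epithelial cells are known to hold pro-interleukin-18 in store before any stimulus, and several of these genes (AIM2, CASP1, CASP4 and the guanylate-binding proteins among them) are textbook targets of interferon-γ.

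The data were poly-A RNA-seq of HK1 cells, an established line of nasopharyngeal carcinoma (NPC), harvested from a culture shared with activated CD8+ T cells. There were 2 libraries of the FLI1 knockout (KO) genotype, labelled sgFLI1-1 and sgFLI1-2 after the guide RNA used against FLI1, an ETS-family transcription factor, and 1 library of the wild-type (WT) genotype, and all 3 had been exposed to the T cells. The comparison asked which tumour cell transcripts differed when FLI1 was targeted. The labels do not say whether a KO line was a clone or a pool, or whether the WT cells carried a control guide. Separate cultures for the libraries are not stated either. The only spread within a group was that between the KO libraries, and the WT library was taken to vary like them. For each gene this spread gave 1 residual degree of freedom, beside 9.56 prior degrees of freedom estimated over all tested genes. The p-values thus rest mostly on variance shared over genes, and less on the KO spread of each gene.

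The libraries held 23904587 (labelled sgFLI1-1), 22409203 (labelled sgFLI1-2) and 22172158 (WT) gene counts. FLI1 itself, which checks the labels, had 11 counts in the library labelled sgFLI1-1, 109 in that labelled sgFLI1-2 and 125 in WT. Its mRNA was thus nearly lost under one guide and stood at 86.3% of the WT level under the other (log2 ratio -0.21, 95% exact binomial interval -0.60 to 0.17), so that what is said below of the KO libraries takes their labels as given. The columns for KO number 1 and KO number 2 were tied to the guides by that number alone. Of 19 CD8 T cell markers 15 were at 0 in all libraries, CD3D, CD3E, CD3G, CD8A and CD8B among them, and the list summed to 20 and 27 counts in the KO libraries and 14 in WT. Of 10 myeloid markers 5 were at 0 in all libraries, LYZ, TYROBP and SPI1 among them, and the list summed to 144 and 130 counts in the KO libraries against 357 in WT, 294 of which were CD68, and a part of these few reads in the values below was not tested. Of 10 squamous epithelial markers, KRT17, SFN, PERP and DSP each had at least 641 counts in every library. EPCAM had 160 and 93 counts in the KO libraries and 183 in WT, while KRT5, KRT6A, KRT14, TP63 and CDH1 did not pass 44 counts in any. The epithelial label was thus met only in part and is taken as given. In bulk RNA, fewer cells of a type and less RNA per cell cannot be told apart.

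Of the 8 genes, 7 had fewer counts in both KO libraries than in WT, and IL18 had more. The share of all tested genes with fewer counts in both KO libraries was not computed, so this count is a description only. AIM2, CASP1 and CASP4 were called lower and IL18 was called higher by edgeR's quasi-likelihood test, with thresholds of 0.05 on the Benjamini-Hochberg adjusted p and 2 on the fold change. Over all 15483 tested genes 2.95% were called lower and 1.83% higher. GSDMD passed the adjusted p but not the fold change, and CARD16, PYCARD and NLRP1 passed the fold change but not the adjusted p. All 8 genes passed the filter on low counts. The median log2 fold change of the 8 genes was -1.35, beside 0.001 for all tested genes. These calls depended on the filter: with no filter on low counts edgeR called none of the 8 genes (6 had an unadjusted p under 0.05) and 41 genes in all, whereas DESeq2, with the filter kept, called the same 4 genes.

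**Figure D1:**
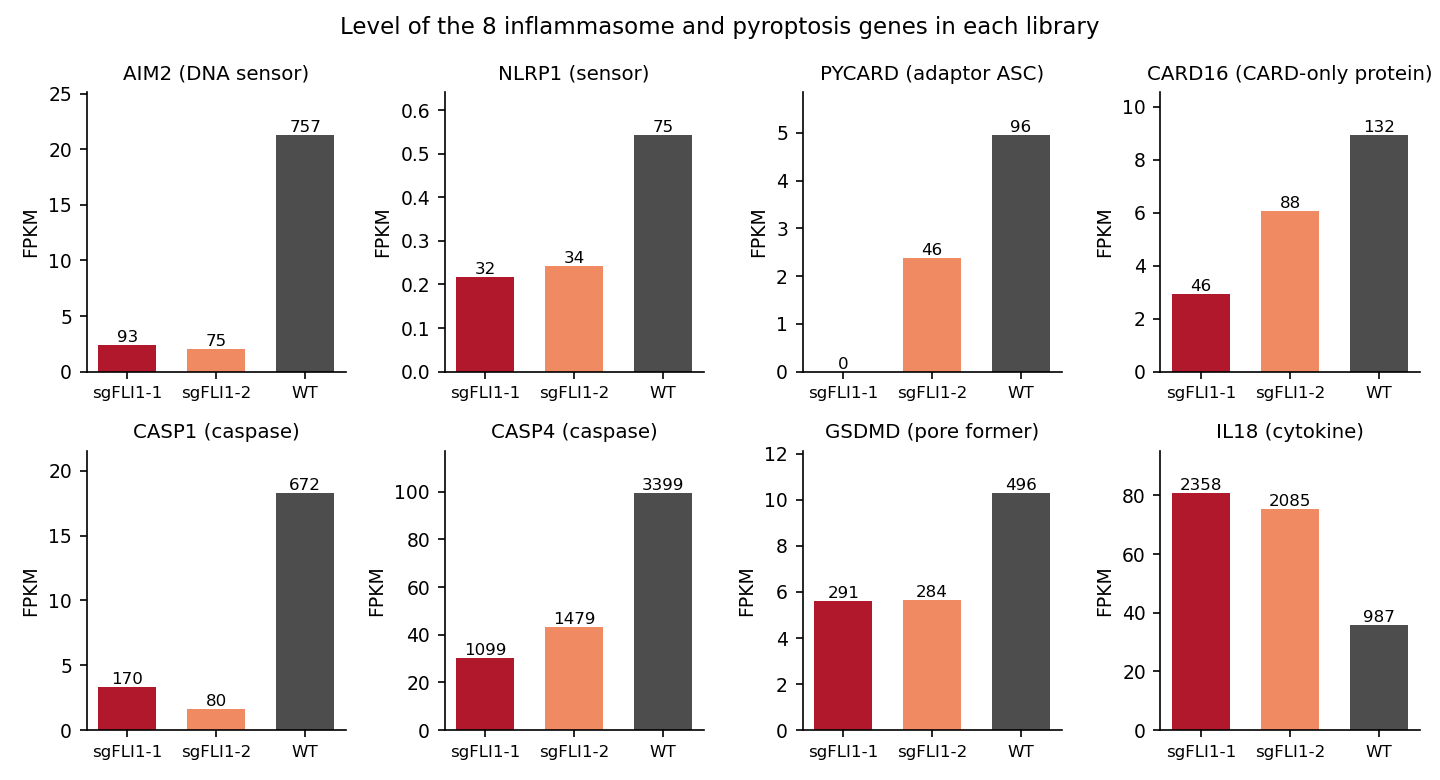
FPKM (fragments per unit of transcript length and library size, vertical axis from 0) of each of the 8 genes in the libraries labelled sgFLI1-1 and sgFLI1-2 and in the WT library, 1 bar per library, with the raw count above each bar. AIM2, CASP1 and CASP4 stand lower in both KO libraries than in WT, IL18 stands higher in both, and PYCARD has no count in the library labelled sgFLI1-1.

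AIM2, the sensor of double-stranded DNA in the cytosol, showed the largest called change of the 8 genes. The gene (ENSG00000163568) spans chromosome 1 from 159061599 to 159187843 on the minus strand of GRCh38. It had 93 counts in the library labelled sgFLI1-1, 75 in that labelled sgFLI1-2 and 757 in WT. On the per-length scale this was a level of 2.43 and 2.04 FPKM in the KO libraries against 21.3 FPKM in WT. The KO libraries lay close to each other and far under WT, at 11.4% and 9.80% of the WT counts scaled to library size (CPM). The log2 fold change was -3.23 (SE 0.25, n = 2 KO and 1 WT), a 9.4-fold lower level, with an adjusted p of 2.1e-05 by edgeR's quasi-likelihood test. The ratio between the KO libraries had an interval that spans 0 (log2 ratio of sgFLI1-1 over sgFLI1-2 0.22, exact binomial interval -0.24 to 0.68), so that no difference between the guides was detectable at this depth.

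The promoter of AIM2 is shown because the gene had the lowest fold change of those called and because the window can be read for sites of interferon-driven and ETS factors. The RefSeq table of promoters (GRCh38.p14) held 3 of the 8 genes, AIM2, CASP4 and PYCARD. The 250 bases before the start site were searched on both strands for the ISRE core GAAANNGAA (bound by IRF proteins) and for CCGGAA, a narrow form of the ETS core. All 3 windows end at a RefSeq start site that lies inside the span of the gene in the deposited table. For AIM2 that span runs on to 159187843, and no window was searched there. The AIM2 window, chr1:159076767-159077016 on the minus strand, held 1 match, in capitals here. It was an ISRE core on the other strand at 189 to 181 bases before the start site, and it overlapped no other motif.
AIM2: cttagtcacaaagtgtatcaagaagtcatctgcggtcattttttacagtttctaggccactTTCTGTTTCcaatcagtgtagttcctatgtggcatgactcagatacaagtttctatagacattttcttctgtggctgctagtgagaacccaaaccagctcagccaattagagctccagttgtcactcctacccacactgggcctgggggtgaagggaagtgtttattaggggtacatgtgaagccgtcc
An ISRE core stood within the same 250 bases of 6.88% of the 35116 promoters listed by RefSeq, and CCGGAA in 14.5%. A match is a description of the letters and not a measured binding site. The CASP4 and PYCARD windows held neither GAAANNGAA nor CCGGAA. The shorter GGAA within CCGGAA was not searched for, so ETS sites of other letters are not covered.

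NLRP1, a sensor of protease activity and double-stranded RNA that is known as the main inflammasome sensor of human skin keratinocytes, had the lowest FPKM of the 8 genes in WT. The gene (ENSG00000091592) lies on chromosome 17 from 5499427 to 5619424. It held 32 counts in the library labelled sgFLI1-1, 34 in that labelled sgFLI1-2 and 75 in WT, or 0.217, 0.241 and 0.544 FPKM. Both KO libraries were under WT and lay near each other. Its log2 fold change of -1.24 (SE 0.48) did not pass edgeR's quasi-likelihood test (adjusted p = 0.170), and each KO library on its own had a counting interval below 0 (log2 ratio -1.34, -1.98 to -0.72, for sgFLI1-1, and -1.16, -1.79 to -0.55, for sgFLI1-2). These intervals cover counting error only.

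Among the other sensors, IFI16, a DNA-binding relative of AIM2, was the only further call. It had 3207 and 2916 counts in the KO libraries and 10064 in WT, and its log2 fold change by edgeR was -1.78 (SE 0.16), with an adjusted p of 7.9e-05. Of the 14 sensor genes on the list 7 were tested, 2 were called lower (AIM2 and IFI16), beside 2.95% of all tested genes, and none higher. The 5 tested genes that were not called included CARD8 (200 and 194 counts in the KO libraries, 137 in WT) and NAIP (50 and 73 against 44). NLRP3, the sensor most studied in myeloid cells, had 0 and 7 counts in the KO libraries and 8 in WT, and NLRP2, NLRP6, NLRP7 and PYHIN1 were at 0 in all 3 libraries.

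PYCARD, which encodes the adaptor ASC that links sensors to pro-caspase-1, differed between the KO libraries. The gene (ENSG00000103490) lies on chromosome 16 from 31201486 to 31203450. No PYCARD read was counted in the library labelled sgFLI1-1, 46 were counted in that labelled sgFLI1-2 and 96 in WT. A count of 0 allows up to 3 counts, or 0.126 CPM at this depth, which makes PYCARD at least 34.5-fold lower there than in WT and at least 16.4-fold lower than in the other KO library, with those counts taken as exact. With their counting error, the upper exact binomial limits of the log2 ratios were -4.78 and -3.68. The library labelled sgFLI1-2 stood at 47.4% of WT (log2 ratio -1.08, -1.62 to -0.56). Because the KO libraries were this far apart, the fitted log2 fold change of -2.09 had an SE of 1.12 and did not pass the test (adjusted p = 0.327, edgeR's quasi-likelihood test). The antisense gene PYCARD-AS1 held 1, 0 and 1 counts in the same order, and the median change of genes within 10 Mb of PYCARD on chromosome 16 was -0.03 and 0.01 in the KO libraries on log2(FPKM + 1).

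CARD16 encodes a short protein made mostly of a caspase recruitment domain (CARD), close in sequence to that of caspase-1 and known to bind caspase-1. The gene (ENSG00000204397) lies on chromosome 11 from 105041326 to 105101431. Its counts were 46 in the library labelled sgFLI1-1, 88 in that labelled sgFLI1-2 and 132 in WT, or 2.94, 6.08 and 8.95 FPKM. The KO libraries were both under WT but differed from each other (log2 ratio of sgFLI1-1 over sgFLI1-2 -1.03, -1.58 to -0.50). At -1.03 (SE 0.46), its log2 fold change did not pass edgeR's quasi-likelihood test (adjusted p = 0.236). The remaining genes of the CARD-only and pyrin-only list were near or at 0: CARD17, an expressed pseudogene in the GENCODE v44 annotation that lies within the annotated span of CARD16, had 2, 0 and 1 counts, and CARD18, PYDC1 and PYDC2 had none in any library.

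The counts of CARD16 and CASP1 are uncertain in a further respect, since their transcripts share sequence. Over the first 273 coding bases of their canonical GENCODE v44 transcripts they differed at 3 bases (98.9% identity), and 24.4% of the 50-base words of the CARD16 transcript also occurred in a CASP1 transcript. These 273 bases are a part of a CASP1 transcript of 1996 bases, and the words were shorter than the sequenced reads, which came in pairs. The start of exon 2, coding bases 8 to 127 in both, is printed to show how little a read that lies within it can use to tell them apart. The capitals mark the 2 bases that differ, and the stretches lie at chr11:105034355-105034474 (CASP1) and chr11:105044539-105044658 (CARD16) on the minus strand of GRCh38.
CASP1: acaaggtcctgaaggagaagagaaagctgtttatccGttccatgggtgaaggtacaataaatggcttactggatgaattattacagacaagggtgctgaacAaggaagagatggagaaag
CARD16: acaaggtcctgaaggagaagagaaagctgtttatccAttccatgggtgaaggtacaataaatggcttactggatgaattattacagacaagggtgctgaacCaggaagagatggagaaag
The sources used here do not give how reads that fit both genes were counted.

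CASP1, the caspase that matures interleukin-1β and interleukin-18, fell in both KO libraries and further in the one whose FLI1 mRNA was kept. The gene (ENSG00000137752) lies on chromosome 11 from 105025397 to 105035250, beside CARD16. The library labelled sgFLI1-1 held 170 CASP1 counts, the one labelled sgFLI1-2 80 and the WT library 672. These are levels of 3.35 and 1.64 FPKM in the KO libraries and 18.3 FPKM in WT. The log2 fold change was -2.49 (SE 0.34), a 5.64-fold lower level (adjusted p = 0.0013, edgeR's quasi-likelihood test). Both KO libraries lay below the WT library, which is 1 value without a spread. The KO libraries differed from each other by a log2 ratio of 0.99 (0.60 to 1.40, counting error only), so that the fold rests on which library is used. The log2 ratio to WT was -3.09 without the library labelled sgFLI1-1 and -2.08 without that labelled sgFLI1-2. The deposited measures also disagreed for this gene. FPKM per count in the KO libraries was 0.724 and 0.756 of its WT value for CASP1, against 0.940 and 1.00 at the median of the 11014 genes with at least 50 counts in each library, and 1.62% and 1.21% of genes had a lower ratio. The other genes of the 8 lay between 0.959 and 1.02 of that median. A part of reads shared with CARD16 in this was not tested.

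CASP4, the caspase that senses lipopolysaccharide, was the most abundant of the 8 genes in WT, at 99.4 FPKM. The gene (ENSG00000196954) lies in the same cluster, from 104942866 to 104969366. Its counts were 1099 in the library labelled sgFLI1-1, 1479 in that labelled sgFLI1-2 and 3399 in WT, and its levels in the KO libraries were 30.4 and 43.2 FPKM. Both KO libraries were far under WT, and the one labelled sgFLI1-1 was the lower (log2 ratio between them -0.52, -0.64 to -0.41). The log2 fold change was -1.45 (SE 0.21), a 2.74-fold lower level, with an adjusted p of 0.0018 by edgeR's quasi-likelihood test. CASP1 and CASP4 thus differed between the guides in opposite directions, although CASP4 less the median change of its chromosome 11 neighbours (described below) was -1.22 and -1.21. The ratio of CASP4 to CASP1 FPKM was 9.07 and 26.3 in the KO libraries against 5.44 in WT. From the counts (CPM), the same ratio was 6.46 and 18.5 in the KO libraries against 5.06 in WT. The related caspases CASP5 and CASP12 were at 0 counts in all libraries. The CASP4 promoter window, chr11:104968575-104968824 on the minus strand, is printed for comparison with that of AIM2. Nothing is in capitals since neither GAAANNGAA nor CCGGAA matched.
CASP4: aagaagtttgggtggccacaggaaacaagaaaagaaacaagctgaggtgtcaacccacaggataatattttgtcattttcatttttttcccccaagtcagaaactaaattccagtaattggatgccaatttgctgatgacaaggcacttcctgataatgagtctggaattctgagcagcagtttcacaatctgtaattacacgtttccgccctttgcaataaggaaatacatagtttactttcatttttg

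The guanylate-binding proteins, which coat bacterial lipopolysaccharide and help caspase-4 to bind it, fell as a group beside CASP4. Of 7 listed genes 5 were tested (GBP1 to GBP5), and all 5 were called lower, beside 2.95% of all tested genes. The list median was -3.22 against 0.001 for all tested genes. The list was written with earlier results of these data known. GBP1 had 4337 and 4207 counts in the KO libraries and 37420 in WT (log2 fold change -3.19, SE 0.14), and GBP5 had 867 and 737 against 9170 (-3.58, SE 0.17). The log2 fold changes were -3.22 for GBP2, -2.48 for GBP3 and -3.31 for GBP4. GBP6 and GBP7 were at 0 in both KO libraries and held 9 and 2 counts in WT.

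GSDMD encodes gasdermin D, whose cleaved part forms the pores of pyroptosis. The gene (ENSG00000104518) lies on chromosome 8. Its counts were 291 in the library labelled sgFLI1-1, 284 in that labelled sgFLI1-2 and 496 in WT, or 5.61, 5.67 and 10.3 FPKM. The KO libraries were nearly equal (5.64 ± 0.0403 FPKM, SD, n = 2) and both stood a little over 50% of WT, at 54.4% and 56.7%. Its log2 fold change of -0.85 (SE 0.22) passed the test (adjusted p = 0.0439, edgeR's quasi-likelihood test) but not the fold change of 2, and DESeq2 gave an adjusted p of 0.182. A lncRNA on the other strand, ENSG00000289161, held 49, 58 and 78 counts, and without knowledge of strand its reads and those of GSDMD cannot be told apart.

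Of the 7 genes on the list of gasdermins and membrane rupture 4 were tested and none was called by edgeR or DESeq2, while GSDMD and GSDME had an unadjusted p under 0.05 in edgeR. NINJ1, which ruptures the plasma membrane after the pores have formed, had 882 and 933 counts in the KO libraries and 976 in WT (log2 fold change -0.16, SE 0.19, adjusted p = 0.676, edgeR). GSDME, the gasdermin that caspase-3 cleaves, is named after its values were seen: it had 36 and 70 counts in the KO libraries and 166 in WT, with an adjusted p of 0.0509. Genes within 10 Mb of GSDME on chromosome 7 had a median change of -0.23 and -0.40 on log2(FPKM + 1), and their part in the GSDME value was not tested.

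IL18, the cytokine that caspase-1 releases from its precursor and that drives interferon-γ production by T cells and NK cells, moved the other way. The gene (ENSG00000150782) lies on chromosome 11 from 112143253 to 112164096. It had 2358 counts in the library labelled sgFLI1-1, 2085 in that labelled sgFLI1-2 and 987 in WT. This made it the most abundant of the 8 genes in both KO libraries (80.7 and 75.5 FPKM), while in WT, at 35.7 FPKM, it stood second to CASP4. The KO libraries agreed within counting error (log2 ratio 0.08, -0.0013 to 0.17) and both were over WT. The log2 fold change was 1.11 (SE 0.18), a 2.16-fold higher level, with an adjusted p of 0.0042 by edgeR's quasi-likelihood test. The measurement is of mRNA only and does not show how much interleukin-18 was cleaved or released.

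IL18BP, which encodes the secreted protein that binds interleukin-18 and blocks it, fell while IL18 rose. IL18BP had 369 and 303 counts in the KO libraries and 3192 in WT, which gave a log2 fold change of -3.31 (SE 0.18) and an adjusted p of 2.3e-06 by edgeR's quasi-likelihood test. On the per-length scale IL18BP stood at 5.53 and 4.58 FPKM in the KO libraries and 55.5 FPKM in WT. The order of both genes therefore differed: IL18 was 14.6 and 16.5 times the FPKM of IL18BP in the KO libraries and 0.643 times in WT. The receptor chains IL18R1 (0 and 31 counts in the KO libraries, 9 in WT) and IL18RAP (0 and 1 against 0) had few or no counts, and both are named after their values were seen. SIGIRR and IL1RAP, the most abundant other genes among the receptors and inhibitors of the family, were not called (log2 fold changes -0.36 and 0.44).

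Of 8 interleukin-1 family ligands 4 were tested and 2 were called, both higher, beside 1.83% called higher over all tested genes. The call other than IL18 was IL33, a nuclear alarmin, with 230 and 192 counts in the KO libraries and 67 in WT (log2 fold change 1.59, SE 0.36, adjusted p = 0.023, edgeR). IL1B, the other main cytokine substrate of caspase-1, had 479 and 411 counts in the KO libraries and 586 in WT and was not called (log2 fold change -0.46, SE 0.20, adjusted p = 0.231). IL1A had 407 and 547 counts against 293 (0.65, SE 0.26, adjusted p = 0.184). The FPKM of IL18 was 6.68 and 6.81 times that of IL1B in the KO libraries and 2.25 times in WT.

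**Figure D2:**
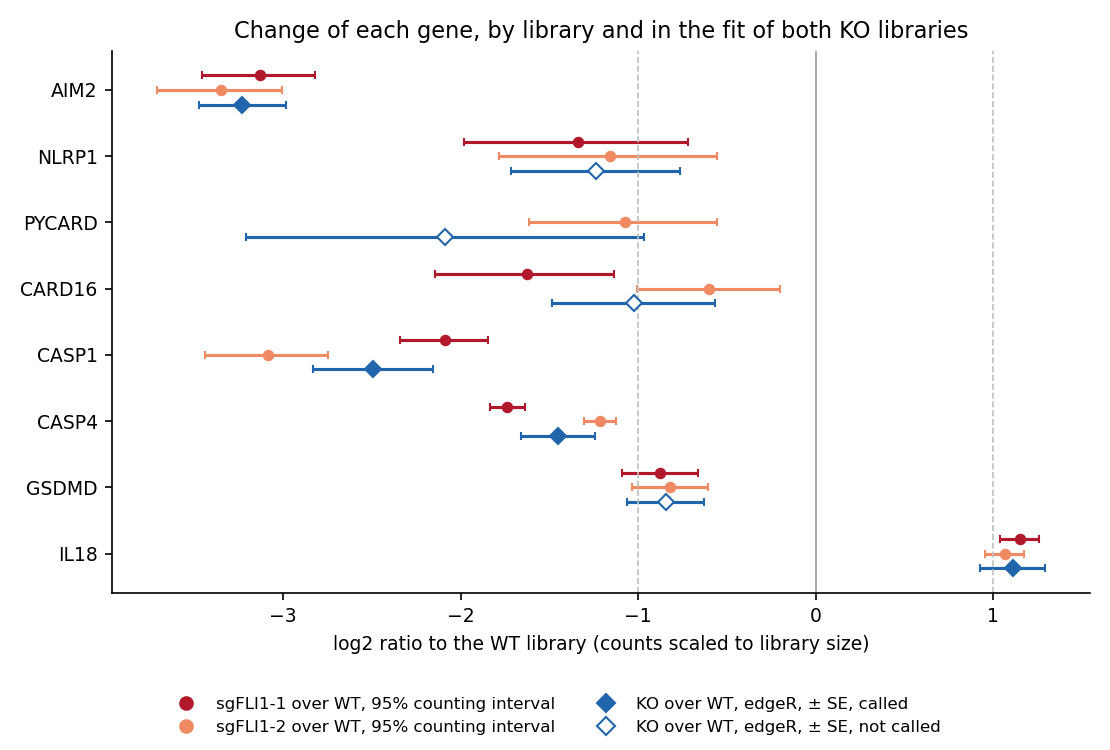
Change of each of the 8 genes as a log2 ratio to the WT library (horizontal axis), with the ratio of each KO library as a dot (95% exact binomial interval, counting error only) and the edgeR log2 fold change of both KO libraries as a diamond (± SE, filled where called). The dots of CASP1, CASP4 and CARD16 lie apart between guides, those of AIM2, NLRP1, GSDMD and IL18 overlap, and PYCARD has no dot for sgFLI1-1 because its count was 0.

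Between the guides, the interval of the ratio includes 0 for AIM2, NLRP1, GSDMD and IL18 and lies on one side of 0 for CASP1, CASP4, CARD16 and PYCARD. PYCARD, CARD16 and CASP4 were lower in the library labelled sgFLI1-1, the one with little FLI1 mRNA, and CASP1 was lower in that labelled sgFLI1-2. Less the median change of their chromosome 11 neighbours (described below), CASP4 stood at -1.22 and -1.21 in sgFLI1-1 and sgFLI1-2, nearly equal. In the same order, CARD16 stood at -0.88 and -0.51 and CASP1 at -1.69 and -2.89. With 1 library per guide these differences have no replicate check. In order of FPKM, the library labelled sgFLI1-1 had IL18, CASP4, GSDMD, CASP1, CARD16, AIM2, NLRP1 and PYCARD. The library labelled sgFLI1-2 had IL18, CASP4, CARD16, GSDMD, PYCARD, AIM2, CASP1 and NLRP1, and WT had CASP4, IL18, AIM2, CASP1, GSDMD, CARD16, PYCARD and NLRP1. AIM2, at rank 3 in WT, was at rank 6 in both KO libraries. CASP1 was at rank 4 in WT and in the library labelled sgFLI1-1, and at rank 7 in that labelled sgFLI1-2. Some neighbours in these orders lay close: CASP1 and CARD16 in the first, and PYCARD and AIM2 in the second, were within 0.5 FPKM of each other.

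CASP1, CASP4 and CARD16 form a cluster on chromosome 11 and IL18 lies 7.12 Mb away on the same arm, so each was set beside its neighbours. The neighbours were the 51 other genes of chromosome 11 from 100 to 140 Mb with a mean of at least 10 FPKM. On log2(FPKM + 1), a scale that understates changes of low genes, their median change from WT was -0.46 in the library labelled sgFLI1-1 (quartiles -0.78 and -0.26) and 0.02 in that labelled sgFLI1-2 (quartiles -0.17 and 0.16). In the library labelled sgFLI1-1 the median of the stretch was thus below that of all genes of the same minimum level, which was 0.06. A value per gene carries no p here, since genes of 1 library are not replicates.

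CASP1 and CASP4 lay below all 51 neighbours in both KO libraries. CASP1 and CARD16, with means of 7.76 and 5.99 FPKM, would not have met the minimum set for neighbours. Their places are thus among genes of higher level, and were not taken with a lower minimum. CASP1 changed by -2.15 and -2.87, a difference of -1.69 and -2.89 to the neighbour median. CASP4 changed by -1.68 and -1.18, a difference of -1.22 and -1.21. With the neighbours taken within 10 Mb of CASP4 instead, the CASP4 differences were -1.47 and -1.28. CARD16, at -1.34 and -0.49, was within the range of the neighbours, with 4 and 3 of them lower, and its difference to the median was -0.88 and -0.51.

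IL18 lay above all 51 neighbours in both KO libraries, with changes of 1.16 and 1.06. It stood 1.61 above the neighbour median in the library labelled sgFLI1-1 and 1.04 above it in that labelled sgFLI1-2. Its nearest neighbours on each side, SDHD at 0.0232 Mb and PTS at 0.0623 Mb, changed by -0.43 and -0.14 in the library labelled sgFLI1-1 and by -0.09 and 0.05 in the other. The nearest neighbours of the caspase cluster were DCUN1D5, 1.85 Mb before it (-0.50 and 0.29), and AASDHPPT, 0.974 Mb after it (-0.04 and 0.10). Of all neighbours, BCL9L (-1.42 and -0.67) and NNMT (-1.06 and -0.90) had the lowest mean change of both libraries, and HSPA8 (0.40 and 0.72) and MCAM (0.01 and 0.90) the highest.

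**Figure D3:**
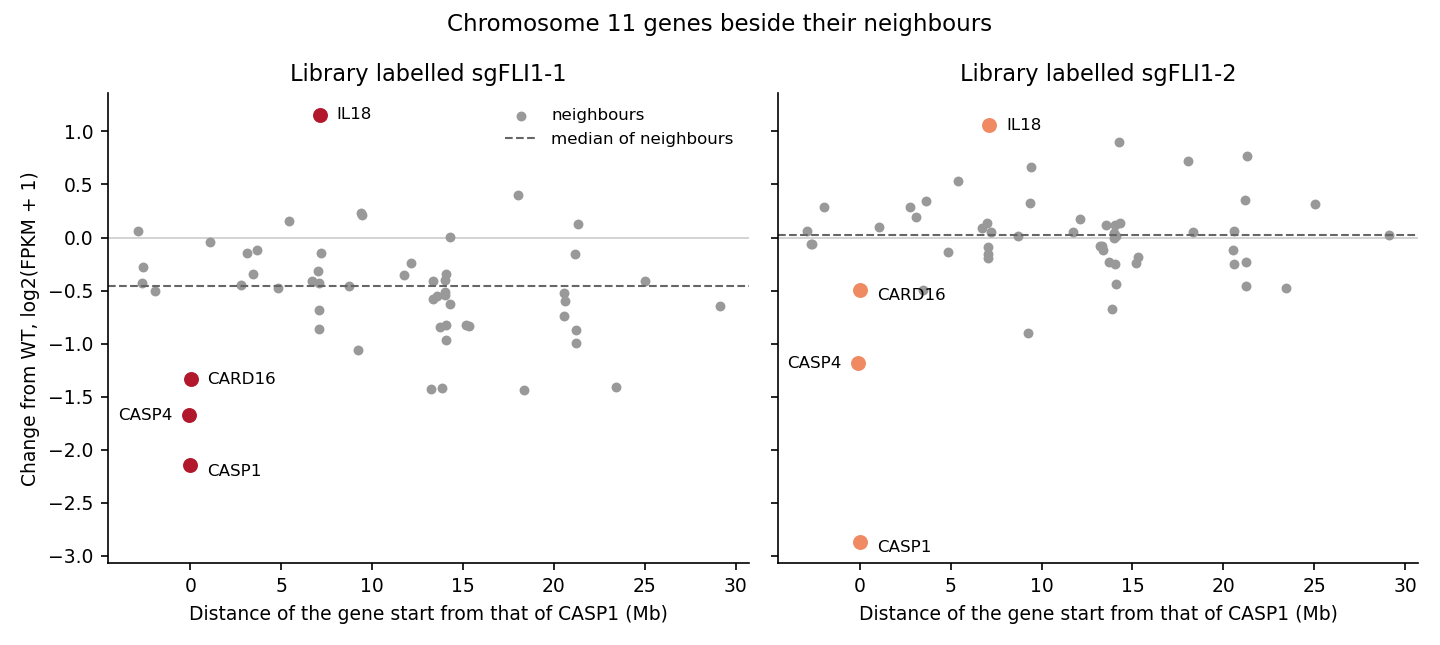
Change from WT on log2(FPKM + 1) (vertical axis) of the chromosome 11 members of the 8 genes (coloured) and their 51 neighbours (grey) against the distance of the gene start from that of CASP1 in Mb, 1 panel per KO library. The dashed line, the median of the neighbours, lies at -0.46 for sgFLI1-1 and 0.02 for sgFLI1-2, CASP1 and CASP4 lie under every neighbour in both panels, and IL18 lies over every one.

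The other 4 genes lie on other chromosomes, where neighbours moved little. Genes within 10 Mb of AIM2 on chromosome 1 had a median change of -0.02 in the library labelled sgFLI1-1 and 0.03 in that labelled sgFLI1-2. The medians were 0.11 in both libraries around GSDMD on chromosome 8, and 0.07 and 0.11 around NLRP1 on chromosome 17. Over all 5712 genes of the same minimum level the medians were 0.06 and 0.05.

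In all, 58 genes of the pathway were listed by role, the 8 genes included and the guanylate-binding proteins left out, and 31 of them were tested. Of these 5 were called lower and 2 higher, beside 2.95% lower and 1.83% higher over all tested genes, and 14 of the 58 were at 0 counts in every library. Without the 8 genes, 23 were tested, with IFI16 and IL18BP called lower, IL33 called higher and a median log2 fold change of 0.02. Among the regulators of the sensors, none of the 7 tested genes was called by edgeR or DESeq2, and 4 had an unadjusted p under 0.05 in edgeR. The most abundant were SUGT1, a chaperone partner of NLR proteins, with 4308 and 3539 counts in the KO libraries and 2730 in WT, and NEK7, a binding partner of NLRP3, with 4264 and 3667 against 2417 (adjusted p = 0.0553, edgeR).

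**Figure D4:**
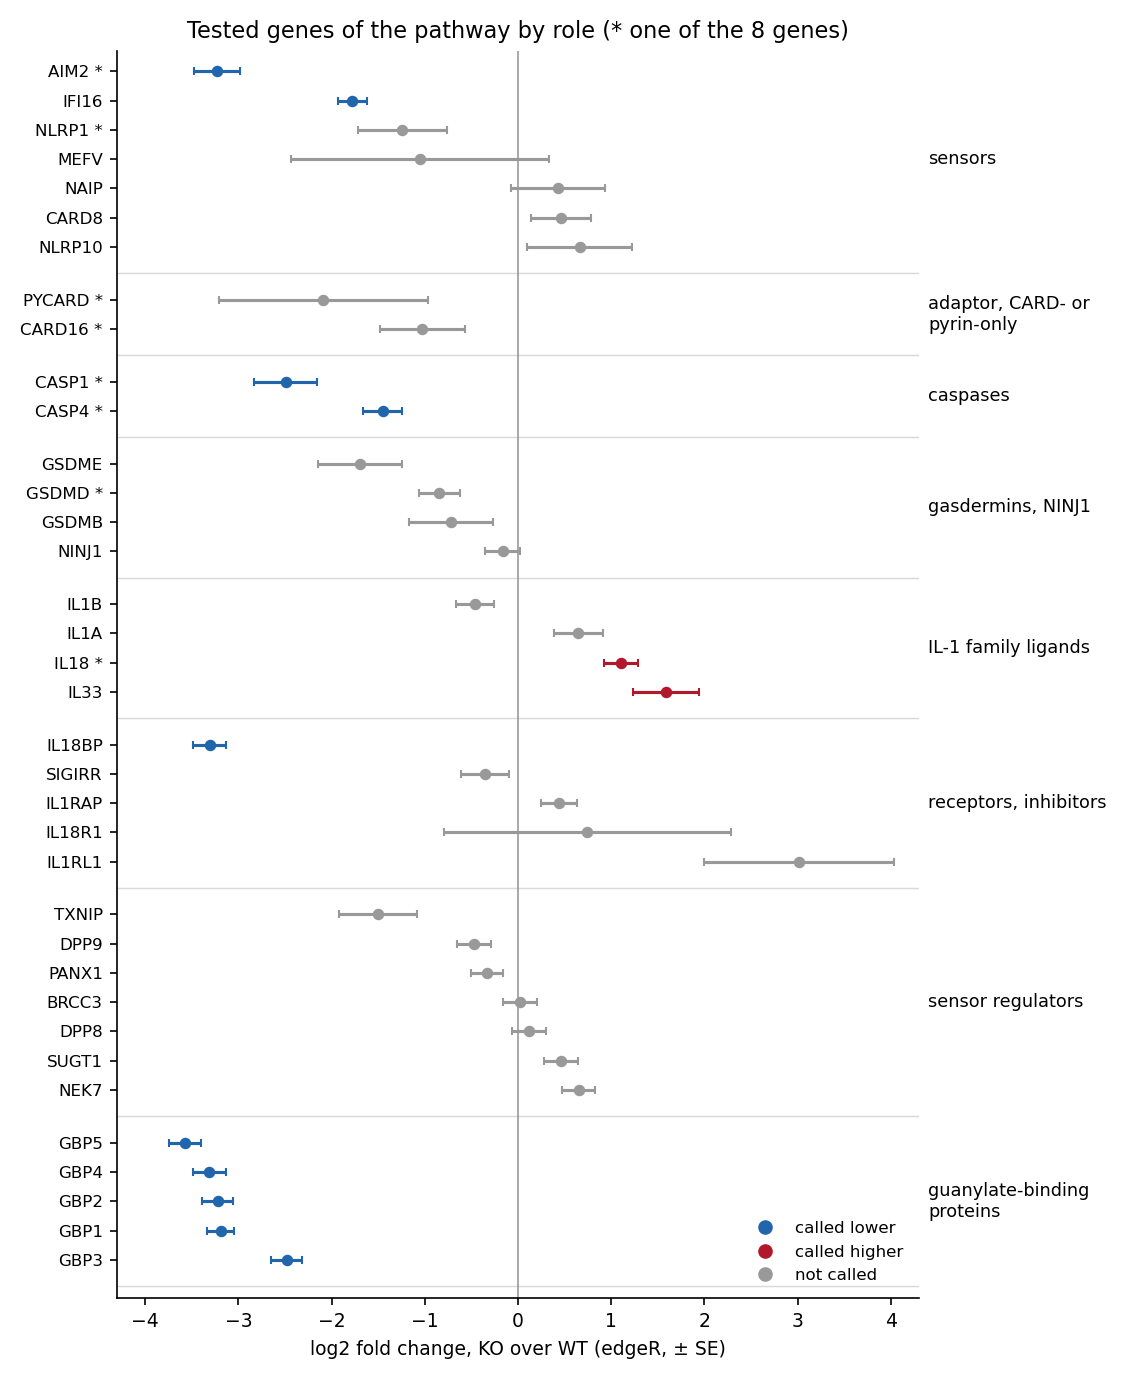
Log2 fold change of KO over WT (edgeR, ± SE, horizontal axis) for each tested gene of the pathway lists and the guanylate-binding proteins, grouped by role, with the 8 genes starred and called genes coloured. Calls are lower among the sensors, the caspases, IL18BP and the guanylate-binding proteins, higher for IL18 and IL33, and the regulators of the sensors hold none.

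For each called gene of the 8, the 3 genes of most similar pattern were found among 10717 tested genes, by the distance between their pairs of log2 CPM ratios (each KO library over WT, 3 libraries in all). BATF2, IL18BP and GBP2 were nearest to AIM2, at distances of 0.07 to 0.15 on the log2 scale. CD58, ELL2 and BAD were nearest to IL18 (0.04 to 0.06), and EDIL3, BAHCC1 and EDN2 to CASP4 (0.08 to 0.09). CASP1 had no equally close gene: NUPR1, CLIC2 and LINC02577 were nearest, at 0.23 to 0.35. Each was lower in the library labelled sgFLI1-2 than in that labelled sgFLI1-1, which follows from picking genes this near to CASP1 and is no separate result.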

How the data were processed

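Poly-A RNA-seq of 3 HK1 libraries was analysed, grouped by the genotype label. The authors trimmed reads with fastp (0.23.2), aligned them to GRCh38 with HISAT2 (2.0.4) and quantified genes with StringTie (1.3.4d). The deposited table gives read counts per gene, not normalized, and the authors also deposited FPKM for the same genes. The counting tool and its use of strand are not given in the sources used here.

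Counts were tested with edgeR (4.0.16, R 4.3.3) by its quasi-likelihood test after filterByExpr (minimum count 10) and TMM scaling. This left 15483 genes, 1 residual and 9.56 prior degrees of freedom, and a common biological coefficient of variation of 0.187. The two-sided p-values were adjusted by Benjamini and Hochberg over all tested genes, and calls needed an adjusted p below 0.05 together with a 2-fold difference. Standard errors are log2 fold changes divided by the root of F. Single KO libraries were set against WT by CPM ratios with exact (Clopper-Pearson) binomial 95% intervals in scipy (1.17.1) and by log2(FPKM + 1), a pseudocount of 1. Zero counts were bounded with 3 counts per library. Intervals and bounds cover counting error only, at 22172158 to 23904587 counts per library.

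Sequences came from RefSeq (GRCh38.p14 promoters) and GENCODE v44 transcripts. Coding sequences of CASP1 and CARD16 were compared in place of their proteins. Gene coordinates are those of the deposited table. No column of another sample was used.

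The 8 genes, the lists and the motifs were chosen with earlier results of these data known. Named were the 8 genes, FLI1, every called gene of the role lists and up to 2 uncalled genes per list of highest mean FPKM, the nearest and most changed chromosome 11 neighbours, and the 3 genes of nearest pattern per called gene. Genes named by another choice are marked as such or given as markers or as untested list genes. Alternatives were no filter, at least 50 counts in 1 library, median-of-ratios and upper-quartile scaling, DESeq2 (1.42.0), no fold threshold, leaving out each KO library, and, for the neighbours, CPM, a pseudocount of 0.1, a minimum of 1 FPKM and a window of 10 Mb.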

Additional observations from a re-analysis of the deposited data

How the results depend on the processing

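With no filter on low counts the log2 fold changes barely moved but the calls were lost: CASP1 (-2.49, adjusted p = 0.199), CASP4 (-1.45, 0.183), IL18 (1.11, 0.132) and AIM2 (-3.23, 0.0551) were no longer called, the count of called genes among the 8 was 0, and that over all genes was 41 in place of 740. All 4 were called with at least 50 counts in 1 library (624 genes called in all), median-of-ratios scaling (801), upper-quartile scaling (859) and DESeq2 (571). With no fold threshold GSDMD was called too (-0.85, adjusted p = 0.0439). Without 1 KO library or the other, values with no test, the log2 fold change ranged over -3.09 to -2.08 for CASP1, -1.72 to -1.22 for CASP4, -1.61 to -0.61 for CARD16, 1.05 to 1.16 for IL18, -0.86 to -0.83 for GSDMD, -3.36 to -3.12 for AIM2, -1.32 to -1.16 for NLRP1 and -9.63 to -1.08 for PYCARD, whose lowest value comes from a count of 0, depends on the prior count and is no bound. Beside its neighbours, CASP1 in the library labelled sgFLI1-2 differed from the median by -3.42 with a pseudocount of 0.1, and CASP4 in that labelled sgFLI1-1 by -1.47 with neighbours within 10 Mb, where its value in the library labelled sgFLI1-2 was -1.28. No value changed direction. No paired analysis was possible because the WT group has 1 library. The WT library cannot be left out, so every difference shares its error.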
